A study of Mus musculus with 2 samples.

Results

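The genes of the smooth muscle contractile programme were followed through the tdTomato+ cells of adult skeletal muscle. The list was chosen by name, with earlier results of these data known. The study itself described its vascular smooth muscle cells by members such as *Acta2*, *Cnn1*, *Tagln* and *Myh11*. The high level of members in such cells is therefore no independent finding. The list holds 35 of the 28001 genes in the deposited matrices. They include the smooth muscle actins and myosin and the proteins that switch and brake the motor. Others are actin-binding and anchoring proteins of the contractile cytoskeleton, genes of calcium handling, potassium channel subunits and the coactivator *Myocd*. All 35 were found in both matrices. Each was described across pericyte-like, smooth muscle cell progenitor-like (SMCP-like), vascular smooth muscle cell-like (VSMC-like) and fibroblast-like cells, which were named from markers that hold no member of the list, and whose clustering did not use the members.

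The study traced descendants of cells that express *Hic1*. All mice carried CreERT2 at both *Hic1* alleles and a Cre-dependent tdTomato reporter at both *Rosa26* alleles on C57BL/6J, so a cell expressing *Hic1* when tamoxifen (TAM) was given became tdTomato+ together with its progeny. In the E10-P56 group, dams received 1 oral dose of 7.5 mg TAM at embryonic day 10 and the muscle of the adult offspring was taken at postnatal day 56. For such tracing into adulthood, the study's methods add progesterone to the TAM, caesarean delivery and cross-fostering of the pups. Mice of the adult pulse group were given TAM at 8 weeks in 5 doses of 2.5 mg. The labels give postnatal day 56 for the collection of both groups, whereas the study's results describe a later collection for the adult pulse. The study credits those adult pulse data to earlier work, and whether they are this library was not settled. Tibialis anterior muscles of pooled hindlimbs were digested, tdTomato+ cells negative for blood, endothelial and macrophage surface markers were sorted, and their RNA was counted with 10x Chromium 3' chemistry. Each group is 1 library. No difference between the groups therefore has a replicate check, and no test was possible. The labelling time, the TAM dosing, progesterone, delivery and fostering, and any difference in collection age go together. These, the counting software version (Cell Ranger 5.0.0 against 3.0.2) and the library cannot be told apart. Which version of the chemistry each library used was not settled.

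Smooth muscle contracts when calcium, entering through L-type channels or released from stores, activates calmodulin and the myosin light chain kinase, whose phosphorylation of the regulatory light chain lets smooth muscle myosin pull on actin filaments. Filaments are held by dense bodies, focal contacts and a net of intermediate filaments, and a phosphatase returns the light chain to rest. The genes of this apparatus are largely shared targets of serum response factor (SRF) and its cofactor myocardin. Vascular smooth muscle cells wrap arteries and veins, pericytes sit on capillaries, and these mural cells are often told apart by how much of this apparatus they carry.

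After cells under 1500 UMIs or over 10% mitochondrial UMIs were left out, 6087 of 8236 barcodes remained in the E10-P56 library (median 7648 UMIs per cell) and 8567 of 9195 in the adult pulse library (median 7344). The libraries shared 15 barcodes, 11 of them among the kept cells. The populations held, in the E10-P56 and adult pulse libraries, 4381 and 7242 fibroblast-like, 433 and 394 pericyte-like, 265 and 139 SMCP-like and 212 and 25 VSMC-like cells, so the adult VSMC-like values rest on 25 cells. Their median depths were 8686 and 7655, 3137 and 3207, 8717 and 4640, and 7508 and 6165 UMIs. The study reported VSMCs only from its E10-P56 experiment, against adult pulse data that it credits to earlier work. Clustering the adult pulse library alone gave no VSMC-like population. Levels are given as UMIs per 1000000 UMIs (CPM) over the summed cells of a population, shares of cells after each cell was thinned to 1500 UMIs, and brackets hold exact 95% intervals that cover counting error only.

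The names came from marker lists, so a population's high level of its own markers follows from the naming and is no separate check. The 10 pericyte markers, such as *Rgs5*, *Kcnj8* and *Abcc9*, summed to 25558 and 23786 CPM in pericyte-like cells of the E10-P56 and adult pulse libraries, and to 3781 and 7477 CPM in VSMC-like cells, where the adult cells had no UMI of *Kcnj8* or *Colec11*. The 15 VSMC markers summed to 6018 and 5314 CPM in VSMC-like, 1946 and 1419 CPM in SMCP-like, 789.9 and 1067 CPM in pericyte-like and 224 and 211 CPM in fibroblast-like cells. The 5 SMCP markers, which the study chose on these samples, summed to 1812 and 937 CPM in SMCP-like cells and to 203 and 199.7 CPM in pericyte-like cells. Fibroblast markers were present in every mural population, at 6212 and 11301 CPM in pericyte-like, 6740.3 and 4913 CPM in SMCP-like and 8382 and 8537 CPM in VSMC-like cells against 53510.4 and 64702 CPM in fibroblast-like cells, and their part in the values below was not tested. Of the clusters named tenocyte-like, 1 (65 and 67 cells) was led by *Bglap2*, *Bglap* and *Cytl1*, with *Chad* the only tenocyte marker among its 10 leading genes, and its place in that population is uncertain. The adult SMCP-like cluster was mixed. By their own marker UMIs, 31 of its 139 cells were named SMCP, 57 pericyte and 12 VSMC, against 162, 41 and 20 of 265 in the E10-P56 library.

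The list took a larger share of all UMIs at each step from fibroblast-like to VSMC-like cells. In the E10-P56 library the 35 genes made up 0.277% (0.275 to 0.278) of the UMIs of fibroblast-like, 1.59% (1.57 to 1.61) of pericyte-like, 2.41% (2.39 to 2.43) of SMCP-like and 8.25% (8.21 to 8.29) of VSMC-like cells. In the adult pulse library the shares were 0.248% (0.247 to 0.249), 1.16% (1.14 to 1.18), 2.1% (2.07 to 2.13) and 4.77% (4.66 to 4.87). The same order was found under every processing alternative that gave the shares. *Acta2*, *Tagln*, *Myl9* and *Tpm2* together held 4.05% of the UMIs of E10-P56 VSMC-like cells, and the other 31 members still held 4.2%. The 5 other named populations lay between fibroblast-like and pericyte-like cells, at 0.457% to 0.629% in the E10-P56 library and 0.369% to 0.461% in the adult pulse library.

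**Figure D1:**
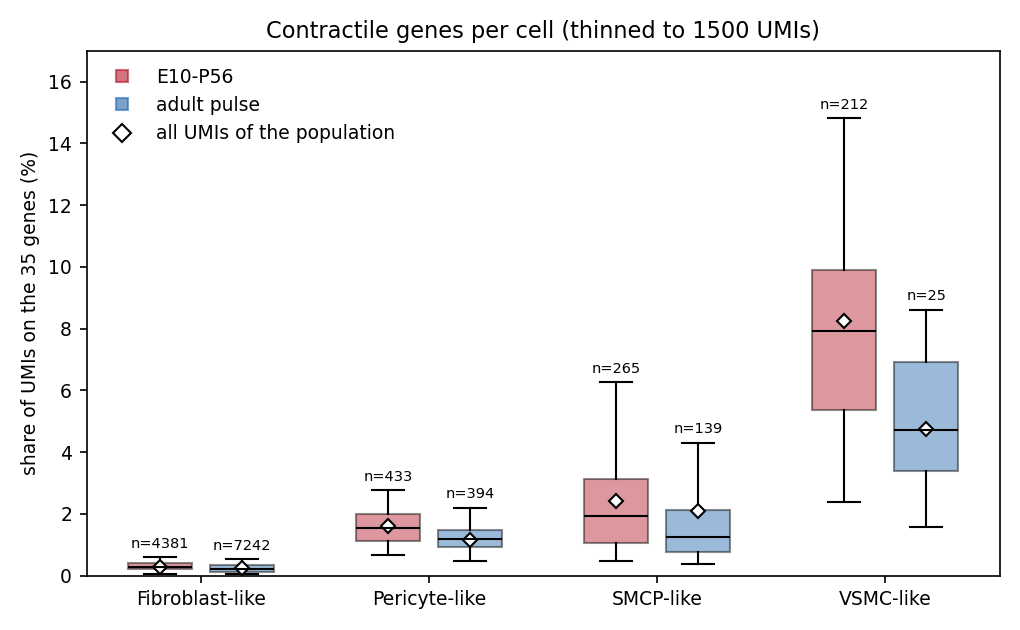
Share of UMIs on the 35 contractile genes per cell (percent of 1500 UMIs after thinning, y axis) in the 4 populations (x axis) of the E10-P56 (red) and adult pulse (blue) libraries. Boxes span the middle 50% of cells with the median as a line, whiskers reach the 5th and 95th percentiles, and diamonds give the share of the population's summed UMIs. Medians run from 0.2% in adult fibroblast-like cells to 7.93% in E10-P56 VSMC-like cells, and SMCP-like cells spread from pericyte-like values into the VSMC-like range.

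Single cells were spread along this gradient, and the steps overlapped. After thinning, the median E10-P56 pericyte-like cell gave 1.53% of its UMIs to the list (5th to 95th percentile 0.667 to 2.76), the median SMCP-like cell 1.93% (0.48 to 6.27) and the median VSMC-like cell 7.93% (2.4 to 14.8). Adult pulse medians were 1.2% (0.467 to 2.2), 1.27% (0.393 to 4.31) and 4.73% (1.57 to 8.61). Of 433 E10-P56 pericyte-like cells, 109 (25.2%) lay above the SMCP-like median and 0 above the VSMC-like median. Of 265 SMCP-like cells, 97 (36.6%) lay below the pericyte-like median and 4 above the VSMC-like median, with the highest at 21%. Of the adult cells, 163 of 394 pericyte-like cells (41.4%) lay above the SMCP-like median and 60 of 139 SMCP-like cells (43.2%) below the pericyte-like median. A cell thinned to 1500 UMIs carried, at the median, UMIs of 3 members in E10-P56 fibroblast-like, 11 in pericyte-like, 12 in SMCP-like and 21 in VSMC-like cells.

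The steps differed in how many members were higher. A member was counted as higher or lower at a step where its CPM differed at least 2-fold and the populations together held at least 20 of its UMIs. From fibroblast-like to pericyte-like cells of the E10-P56 library, 28 of 34 members were higher and 2 lower, against 20.2% and 14.3% of all genes. The median ratio of the members was 2.95 on the log2 scale, against 0.36 for all genes. From pericyte-like to SMCP-like cells, 13 of 34 were higher and 5 lower, against 8.51% and 12.6% of all genes (median 0.63 against -0.20). From SMCP-like to VSMC-like cells, 29 of 35 were higher and 0 lower, against 10.0% and 10.5% of all genes (median 2.11 against -0.09). Directly from pericyte-like to VSMC-like cells, 30 of 35 were higher and 1 lower, against 9.08% and 15.3% (median 3.0 against -0.28).

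The same steps were counted in the adult pulse library. There, 23 of 30 members were higher and 2 lower in pericyte-like than in fibroblast-like cells (16.2% and 12.6% of all genes). In SMCP-like against pericyte-like cells, 18 of 32 were higher and 3 lower (5.66% and 10.0% of all genes). In VSMC-like against SMCP-like cells, 17 of 32 were higher and 3 lower (7.09% and 18.6% of all genes), and in VSMC-like against pericyte-like cells 22 of 30 were higher and 0 lower (5.72% and 23.9% of all genes). The median log2 ratios of the members at these steps were 3.15, 1.08, 1.11 and 2.11, against 0.36, -0.14, -0.14 and -0.29 for all genes. The adult counts depended on how cells were named. With names taken from a cell's own marker UMIs, 6 members were higher in adult SMCP-like than in pericyte-like cells and 9 in the E10-P56 library, and with each library clustered alone 10 and 13. The order of the libraries at this step, 18 against 13 as counted here, thus turned with the naming. The adult count in VSMC-like over SMCP-like cells was 11 with own-marker names. These recounts were made for the members only, with no share over all genes, so they describe the naming and not the list.

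Of the 4 populations, VSMC-like cells had the highest level of 30 members in the E10-P56 library and 29 in the adult pulse library. The exceptions were *Casq2*, *Cacna1c* and *Vcl*, highest in E10-P56 pericyte-like cells, *Actg2* and *Des*, highest in E10-P56 SMCP-like cells, and, in the adult pulse library, *Casq2*, *Smtn* and *Vcl* highest in pericyte-like cells and *Actg2*, *Cnn1* and *Synpo2* highest in SMCP-like cells. The highest population was the same in both libraries for 30 members and the whole order of the 4 for 22. Over all 9 named populations, VSMC-like cells were highest for 29 and 27 members. *Kcnma1* was highest in tenocyte-like cells of both libraries, and *Ckb* in Schwann-like cells of the adult pulse library. The adult VSMC-like level of *Kcnma1* rests on 1 UMI. These counts were made for the members only, with no share over all genes.

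**Figure D2:**
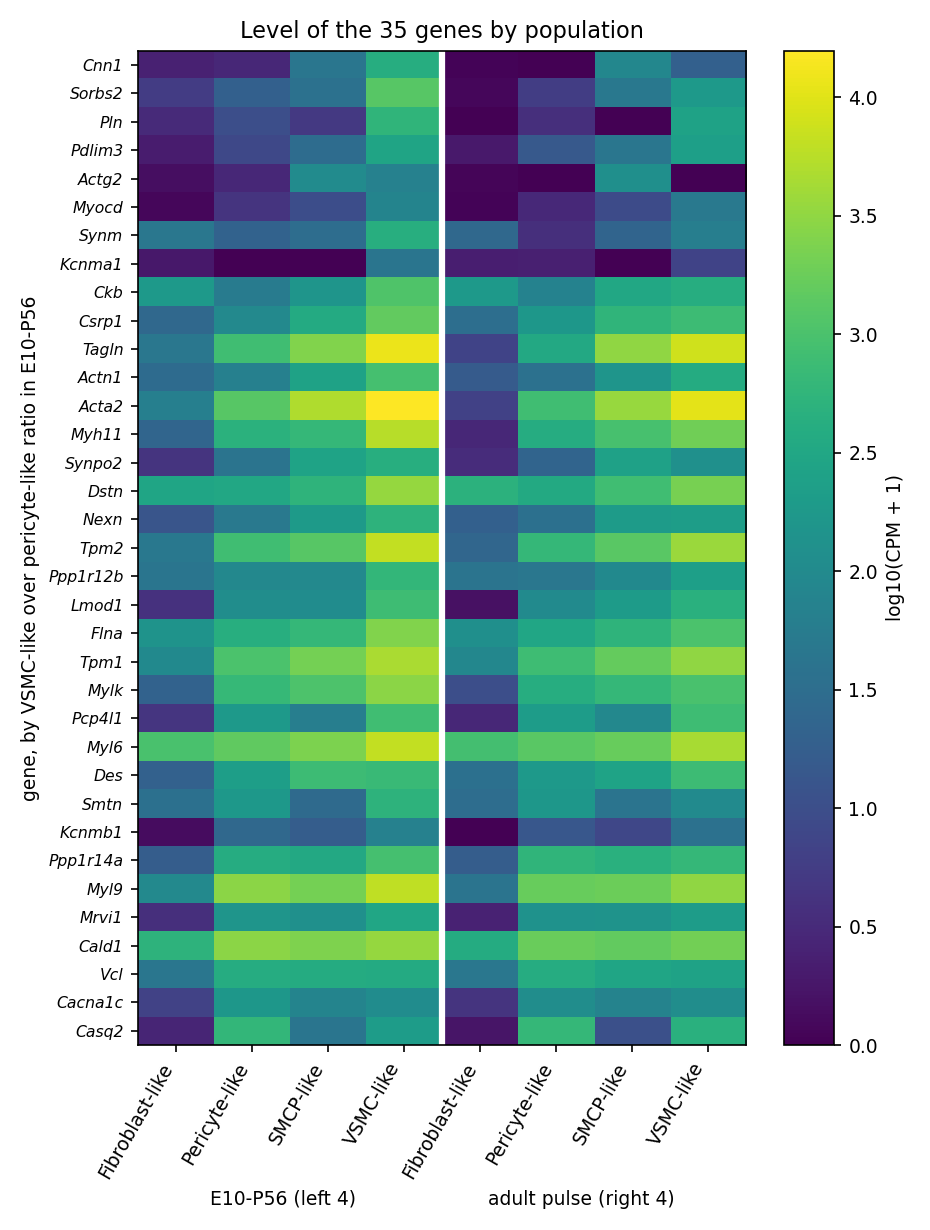
Level of each of the 35 members (rows) in the 4 populations of both libraries (columns), as log10(CPM + 1) from dark blue (0) to yellow, with genes ordered by their E10-P56 ratio of VSMC-like to pericyte-like cells. Most rows are brightest in the VSMC-like columns, while *Casq2* and *Vcl* are brightest in the pericyte-like and *Actg2* in the SMCP-like columns of both libraries.

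The actins and the myosin came first. *Acta2* (ENSMUSG00000035783, chr19:34241090-34255590, minus strand, GRCm38) encodes smooth muscle alpha-actin, the main thin-filament actin of vascular smooth muscle. *Acta2* was measured at 63.8 (61.5 to 66.1) CPM in fibroblast-like, 1261 (1206 to 1319) in pericyte-like, 4994 (4908 to 5081) in SMCP-like and 15694 (15517 to 15872) in VSMC-like cells of the E10-P56 library. *Acta2* stood at 5.37 (4.8 to 5.99) CPM in fibroblast-like, 809 (764 to 857) in pericyte-like, 3509 (3376 to 3646) in SMCP-like and 10543 (10055 to 11049) in VSMC-like cells of the adult pulse library. It was higher at every step in both libraries. It was found in 64.4% of E10-P56 pericyte-like, 80.4% of SMCP-like and 99.5% of VSMC-like cells, against 11.4% of fibroblast-like and 13.6% of Schwann-like cells (median depths 8686 and 7086 UMIs), the latter taken as the background.

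*Myh11* (ENSMUSG00000018830, chr16:14194535-14291372, minus strand), the smooth muscle myosin heavy chain and the most used marker of the mature cell, gained the most CPM at the last step. By ratio, its largest step was from fibroblast-like to pericyte-like cells in both libraries. *Myh11* was measured at 22.6 (21.2 to 24) CPM in fibroblast-like, 471 (438 to 507) in pericyte-like, 627 (596 to 658) in SMCP-like and 5624 (5519 to 5732) in VSMC-like cells of the E10-P56 library. *Myh11* stood at 1.95 (1.61 to 2.33) CPM in fibroblast-like, 389.8 (358 to 423) in pericyte-like, 941 (873 to 1013) in SMCP-like and 1958 (1751 to 2183) in VSMC-like cells of the adult pulse library. SMCP-like cells stood 1.33 (1.22 to 1.45) times the pericyte-like level in the E10-P56 library and 2.41 (2.16 to 2.7) times in the adult pulse library, while VSMC-like cells stood 8.97 (8.52 to 9.46) and 2.08 (1.82 to 2.38) times the SMCP-like level. The adult SMCP-like value leans on few cells. Of its 701 UMIs, 1 of 139 cells held 204, and 5 cells held 42.4%. The 12 of these cells that their own markers named VSMC held 316. After thinning, 48.3% (43.5 to 53.1) of E10-P56 pericyte-like and 46.8% (40.7 to 53) of SMCP-like cells held a UMI, so that the share of positive cells did not separate these populations, against 98.6% of VSMC-like and 5.0% of Schwann-like cells.

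*Actg2* (ENSMUSG00000059430, chr6:83512905-83536265, minus strand), the actin of visceral smooth muscle, did not follow this order. *Actg2* was measured at 0.447 (0.276 to 0.683) CPM in fibroblast-like, 1.95 (0.402 to 5.7) in pericyte-like, 104 (92.2 to 118) in SMCP-like and 67.8 (56.6 to 80.5) in VSMC-like cells of the E10-P56 library. *Actg2* stood at 0.134 (0.0579 to 0.264) CPM in fibroblast-like, 0 (0 to 2.52) in pericyte-like, 121 (97.1 to 149) in SMCP-like and 0 (0 to 22.2) in VSMC-like cells of the adult pulse library. SMCP-like cells held 53.5 (18.1 to 261) and at least 58.9 times the pericyte-like level, the latter against 0 UMIs. Its SMCP-like UMIs came from few cells. In the E10-P56 library 5 of 265 cells held 50.9% of 267 UMIs, and in the adult pulse library 5 of 139 cells held 61.1% of 90 UMIs. The 12 adult SMCP-like cells that their own markers named VSMC held 50 of these 90 UMIs. *Acta2* and *Actg2* are near-identical in their coding sequence, as are the other actins, so their counts are uncertain where the counting could not split reads.

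The light chains differed in where their level went up. *Myl9*, the regulatory light chain that the kinase phosphorylates, had E10-P56 levels of 91.8, 2875, 2091 and 6311 CPM in fibroblast-like, pericyte-like, SMCP-like and VSMC-like cells, and adult pulse levels of 40.2, 1646, 1767 and 3151 CPM. Its largest step was from fibroblast-like to pericyte-like cells, 31.3 (30.03 to 32.7)-fold and 40.9 (38.6 to 43.3)-fold, and SMCP-like cells stood at 0.727 (0.699 to 0.757) and 1.07 (1.0 to 1.15) times the pericyte-like level. *Myl6*, an essential light chain that non-muscle myosins use as well, was already at 963 and 865 CPM in fibroblast-like cells and reached 6558 and 4416 CPM in VSMC-like cells.

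The switch on the motor was graded as well. *Mylk*, the myosin light chain kinase, had levels of 19.8, 646, 1061 and 2914 CPM in the 4 populations of the E10-P56 library, in the order from fibroblast-like to VSMC-like, and 9.11, 414, 627 and 994 CPM in the adult pulse library. *Ppp1r12b*, a targeting subunit of the myosin phosphatase, stood at 41, 90.4, 92.7 and 603 CPM and 39.7, 45.1, 95.3 and 229 CPM, with VSMC-like cells 6.67 (5.59 to 8.01) and 5.07 (3.31 to 7.67) times the pericyte-like level. *Ppp1r14a*, the phosphatase inhibitor CPI-17, was largely set by the first step, at 25 (22.4 to 27.8) and 33.5 (30.5 to 36.9) times the fibroblast-like level in pericyte-like cells, and VSMC-like cells were 2.23 (2.03 to 2.45) and 1.14 (0.922 to 1.4) times the pericyte-like level. *Mrvi1*, the substrate through which cyclic GMP-dependent kinase restrains calcium release, behaved likewise, 58 (46.5 to 72.6) and 93 (72.2 to 121) at the first step and 1.97 (1.69 to 2.3) and 1.48 (0.994 to 2.13) from pericyte-like to VSMC-like cells.

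Among the thin-filament proteins, *Tagln* (ENSMUSG00000032085, chr9:45929619-45936058, minus strand), which encodes the actin cross-linker SM22-alpha, was higher at each step. *Tagln* was measured at 45.7 (43.7 to 47.6) CPM in fibroblast-like, 822 (777 to 868) in pericyte-like, 2562 (2500.2 to 2625) in SMCP-like and 12023 (11869 to 12179.6) in VSMC-like cells of the E10-P56 library. *Tagln* stood at 5.9 (5.3 to 6.55) CPM in fibroblast-like, 343 (313 to 374) in pericyte-like, 3143 (3016 to 3272) in SMCP-like and 7796 (7377 to 8233) in VSMC-like cells of the adult pulse library. Its levels in VSMC-like cells were 14.6 (13.8 to 15.5) and 22.8 (20.5 to 25.3) times those in pericyte-like cells.

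*Cnn1* (ENSMUSG00000001349, chr9:22099216-22109630, plus strand), calponin, which slows the myosin motor, marked the far end of the gradient. *Cnn1* was measured at 1.45 (1.12 to 1.83) CPM in fibroblast-like, 1.95 (0.402 to 5.7) in pericyte-like, 44.2 (36.4 to 53.1) in SMCP-like and 406 (378 to 436) in VSMC-like cells of the E10-P56 library. The pericyte-like value rests on 3 UMIs and the VSMC-like value on 779, a ratio of 208 (71 to 1012). *Cnn1* stood at 0.117 (0.0472 to 0.242) CPM in fibroblast-like, 0 (0 to 2.52) in pericyte-like, 87.3 (67.3 to 111) in SMCP-like and 18.1 (3.73 to 52.8) in VSMC-like cells of the adult pulse library. Adult SMCP-like cells stood at at least 42.5 times the pericyte-like level, the latter on 0 UMIs. The adult VSMC-like value rests on 3 UMIs in 2 of 25 cells, and of the 65 UMIs in SMCP-like cells 5 cells held 80%. The 12 adult SMCP-like cells named VSMC by their own markers held 47 of those 65 UMIs, and with cells named that way the adult ratio of VSMC to SMCP was 22.8 in place of 0.207. In the E10-P56 library 5 cells held 75.2% of the 113 SMCP-like UMIs. *Cnn1* was found in 31.6% (25.4 to 38.3) of E10-P56 VSMC-like cells after thinning, so most of these cells had no UMI of it at this depth.

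The tropomyosins lie along the actin filament. *Tpm1* had levels of 95.9, 1012, 2103 and 4622 CPM in the E10-P56 library and 85.1, 766, 1626 and 3181 CPM in the adult pulse library, and *Tpm2* 46.5, 807, 1260.0 and 6456 CPM and 23, 626, 1316 and 3735 CPM. VSMC-like cells held 8.0 (7.54 to 8.48) and 5.97 (5.38 to 6.62) times the pericyte-like level of *Tpm2*, and 4.57 (4.33 to 4.82) and 4.15 (3.74 to 4.61) times that of *Tpm1*. *Cald1*, caldesmon, was close to level across the mural cells, at 2892, 2447 and 3428 CPM in the E10-P56 and 1724, 1519.6 and 2006 CPM in the adult pulse library.

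*Smtn*, smoothelin, was lower in SMCP-like than in pericyte-like cells, 0.158 (0.12 to 0.207) and 0.244 (0.161 to 0.358) times, and higher again in VSMC-like cells, 18.5 (14.5 to 24) and 2.54 (1.32 to 4.76) times the SMCP-like level. *Lmod1*, a leiomodin that nucleates actin filaments, had levels of 2.98, 115, 107 and 767 CPM and 0.52, 99.2, 201 and 452 CPM. *Dstn*, destrin, which takes filaments apart, was at similar levels in fibroblast-like and pericyte-like cells (287 and 322 CPM in the E10-P56 library) and at 3421 CPM in VSMC-like cells.

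The anchoring proteins split in how far they separated the mural cells. *Vcl*, vinculin, differed less than 2-fold among the mural populations. It was at 397, 379.6 and 368 CPM in pericyte-like, SMCP-like and VSMC-like cells of the E10-P56 library and at 398, 295 and 265 CPM in the adult pulse library. *Flna*, filamin A, and *Actn1*, alpha-actinin, which cross-link actin, were 5.94 (5.47 to 6.46) and 13.7 (11.2 to 17) times as high in E10-P56 VSMC-like as in pericyte-like cells. The LIM proteins *Csrp1* and *Pdlim3* were 16.5 (14 to 19.7) and 38.7 (21.5 to 78) times as high, and 4.48 (3.57 to 5.59) and 16.7 (9.5 to 30.4) times in the adult pulse library. *Nexn*, nexilin, had levels of 11.6, 48.8, 190.0 and 511 CPM and 18.6, 34.9, 197 and 217 CPM.

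*Sorbs2*, an adaptor of cell contacts, was among the members with the widest range. It had 4.59, 18.2, 36.4 and 1264 CPM in the E10-P56 library and 0.201, 4.79, 47 and 181 CPM in the adult pulse library, with VSMC-like cells 69.4 (47.9 to 105) and 37.8 (16.2 to 102) times the pericyte-like level. *Synpo2*, myopodin, was higher early, 6.88 (5.29 to 9.09) and 12 (8.15 to 18.1) times from pericyte-like to SMCP-like cells, and then differed between the libraries: VSMC-like cells had 1.54 (1.39 to 1.71) times the SMCP-like level in the E10-P56 library and 0.499 (0.302 to 0.785) times in the adult pulse library.

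Of the intermediate filament genes, *Des* (ENSMUSG00000026208, chr1:75360329-75368579, plus strand), desmin, was already high in progenitor-like cells of the E10-P56 library. *Des* was measured at 19.4 (18.1 to 20.7) CPM in fibroblast-like, 219.7 (197 to 244) in pericyte-like, 739 (706 to 773) in SMCP-like and 708 (670.5 to 746) in VSMC-like cells of the E10-P56 library. *Des* stood at 34.1 (32.6 to 35.6) CPM in fibroblast-like, 179.9 (159 to 203) in pericyte-like, 275 (239 to 316) in SMCP-like and 753 (627 to 897) in VSMC-like cells of the adult pulse library. SMCP-like and VSMC-like cells were level in the E10-P56 library, at a ratio of 0.957 (0.892 to 1.03), and 2.74 (2.17 to 3.43) in the adult pulse library. *Synm*, synemin, went the other way at the first step, with pericyte-like cells at 0.436 (0.294 to 0.625) and 0.111 (0.0301 to 0.284) times the fibroblast-like level, and was 21.9 (15.2 to 32.6) and 22 (6.35 to 96.2) times as high in VSMC-like as in pericyte-like cells.

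The calcium-handling members did not follow a single order. *Pln* (ENSMUSG00000038583, chr10:53337667-53345987, plus strand), phospholamban, the inhibitor of the calcium pump of the sarcoplasmic reticulum, was nearly confined to VSMC-like cells among the mural populations. *Pln* was measured at 2.13 (1.73 to 2.59) CPM in fibroblast-like, 9.1 (4.98 to 15.3) in pericyte-like, 3.91 (1.87 to 7.19) in SMCP-like and 561 (528 to 595) in VSMC-like cells of the E10-P56 library. *Pln* stood at 0.0335 (0.00406 to 0.121) CPM in fibroblast-like, 2.74 (0.745 to 7.0) in pericyte-like, 0 (0 to 4.95) in SMCP-like and 265 (193 to 356) in VSMC-like cells of the adult pulse library. The VSMC-like level was 143 (77.7 to 299.9) and at least 65.8 times the SMCP-like level. A UMI was held after thinning by 43.4% (36.6 to 50.4) of the E10-P56 VSMC-like cells and by 20% (6.83 to 40.7) of the adult ones, against 0.755% and 0% of SMCP-like cells.

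*Casq2* (ENSMUSG00000027861, chr3:102086415-102146514, plus strand), calsequestrin 2, which buffers calcium in the store, was a pericyte-like gene in these libraries. *Casq2* was measured at 1.68 (1.33 to 2.09) CPM in fibroblast-like, 601 (563 to 641) in pericyte-like, 41.4 (33.9 to 50.1) in SMCP-like and 209 (189 to 230.1) in VSMC-like cells of the E10-P56 library. *Casq2* stood at 0.704 (0.508 to 0.952) CPM in fibroblast-like, 631 (591 to 673) in pericyte-like, 9.4 (3.78 to 19.4) in SMCP-like and 452 (355 to 566) in VSMC-like cells of the adult pulse library. Pericyte-like cells held 358 (284 to 456) and 895 (657 to 1251) times the fibroblast-like level, SMCP-like cells 0.0689 (0.0558 to 0.0843) and 0.0149 (0.00597 to 0.0308) times the pericyte-like level, and VSMC-like cells 5.03 (4.05 to 6.3) and 48.1 (22.2 to 124) times the SMCP-like level. SMCP-like cells thus held the lowest mural level in both libraries.

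*Cacna1c*, the pore of the L-type calcium channel, was highest in E10-P56 pericyte-like cells, at 164 (145 to 186) CPM against 78.2 (67.7 to 89.8) in SMCP-like and 109 (94.7 to 125) in VSMC-like cells. In the adult pulse library it was at 114 (96.9 to 132), 75.2 (56.8 to 97.6) and 114 (68.9 to 179) CPM, and the intervals of pericyte-like and VSMC-like cells overlapped. *Kcnmb1* (ENSMUSG00000020155, chr11:33963013-33973641, plus strand) encodes the smooth muscle beta subunit of the large-conductance potassium channel, which opens on calcium and relaxes the cell, and *Kcnma1* its pore. *Kcnmb1* was measured at 0.383 (0.227 to 0.605) CPM in fibroblast-like, 25.4 (18 to 34.7) in pericyte-like, 16 (11.5 to 21.7) in SMCP-like and 69.4 (58.1 to 82.2) in VSMC-like cells of the E10-P56 library. *Kcnmb1* stood at 0.0168 (0.000425 to 0.0934) CPM in fibroblast-like, 13 (7.82 to 20.3) in pericyte-like, 6.71 (2.18 to 15.7) in SMCP-like and 36.1 (13.3 to 78.7) in VSMC-like cells of the adult pulse library. *Kcnmb1* was thus higher already in pericyte-like cells, 66.2 (37 to 123) and 775 (123 to 32193) times the fibroblast-like level, the latter against 1 UMI. *Kcnma1* was not. It had 0 UMIs in E10-P56 pericyte-like and SMCP-like cells, 41.7 (33.1 to 51.9) CPM in VSMC-like cells, at least 35.6 times the SMCP-like level, and 1 UMI in adult VSMC-like cells.

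*Pcp4l1* repeated the dip of *Casq2* in milder form, with levels of 3.38, 181, 60.6 and 807 CPM and 1.95, 208, 89.9 and 789 CPM. *Ckb*, the brain-type creatine kinase that supplies ATP, was lower in pericyte-like than in fibroblast-like cells (0.299 (0.238 to 0.37) and 0.405 (0.33 to 0.491) times) and 19.9 (16.1 to 25.1) and 5.67 (4.11 to 7.79) times as high in VSMC-like as in pericyte-like cells.

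*Myocd* (ENSMUSG00000020542, chr11:65176561-65269989, minus strand) encodes myocardin, the SRF cofactor that drives the smooth muscle genes. *Myocd* was measured at 0.17 (0.0735 to 0.335) CPM in fibroblast-like, 3.25 (1.06 to 7.59) in pericyte-like, 8.99 (5.7 to 13.5) in SMCP-like and 77.7 (65.7 to 91.2) in VSMC-like cells of the E10-P56 library. *Myocd* stood at 0.0839 (0.0272 to 0.196) CPM in fibroblast-like, 2.05 (0.423 to 6.0) in pericyte-like, 8.05 (2.96 to 17.5) in SMCP-like and 48.2 (20.8 to 95) in VSMC-like cells of the adult pulse library. SMCP-like cells held 2.77 (1.03 to 9.32) and 3.93 (0.838 to 24.3) times the pericyte-like level, and VSMC-like cells 8.64 (5.55 to 14.1) and 5.98 (1.82 to 20.9) times the SMCP-like level. The pericyte-like values rest on 5 and 3 UMIs. *Srf* itself, not a member, was far flatter, at 22.5, 37.7, 62.9 and 85 CPM in the E10-P56 library.

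SRF binds the CArG box, which was searched for only in its strict form CCWWWWWWGG, W being A or T, with no mismatch allowed. Promoters from 250 bases before to 50 bases after the start site, as RefSeq gives them on GRCm38.p6, were available for 30 of the 35 members, and 3 of these (10.0%) held a CArG box on either strand, against 488 of 27025 genes with a promoter (1.81%). Counted by promoter, 3 of 39 (7.69%) held a box, against 535 of 32851 (1.63%). The 3 members were *Myl6*, *Myl9* and *Vcl*, whose boxes begin 50, 161 and 227 bases before the start site of the promoter that holds them. Another *Myl6* promoter, at chr10:128493837-128494136, held none. The boxes are shown because SRF is the known common regulator of the list. Each box is in capitals with up to 30 bases on each side, 5′ to 3′ along the gene.

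Myl6, chr10:128493020-128493089, minus strand: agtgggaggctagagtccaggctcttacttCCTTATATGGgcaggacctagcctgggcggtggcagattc
Myl9, chr2:156775273-156775342, plus strand: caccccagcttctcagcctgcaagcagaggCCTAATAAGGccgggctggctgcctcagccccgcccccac
Vcl, chr14:20929148-20929210, plus strand: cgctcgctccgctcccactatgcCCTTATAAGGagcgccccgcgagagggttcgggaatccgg

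These 3 members were not the steepest of the list. From pericyte-like to VSMC-like cells of the E10-P56 library their ratios were 4.34, 2.2 and 0.927, against 12.4 for *Acta2*, whose window held no match to the strict form. The *Acta2* window did hold ccctatatgg and ccttgtttgg, each a single base off that form. The members without a promoter in the table were *Actg2*, *Myh11*, *Myocd*, *Nexn* and *Tagln*. A match is a description of these letters and not a site of binding, and a missing match says only that the letters are not in this window.

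The SMCP-like cells were set between pericyte-like and VSMC-like cells for some members and outside them for others. Their level lay between the other mural levels for 21 members in the E10-P56 library and 23 in the adult pulse library, below both for 12 and 9, and above both for 2 and 3. All genes were not counted in this way, so whether this placing is particular to the list was not tested. On a scale from the pericyte-like level (0) to the VSMC-like level (100%), drawn for members at least 2-fold higher in VSMC-like cells, *Tpm1*, *Acta2*, *Mylk* and *Tagln* of the E10-P56 library stood at 30.2%, 25.9%, 18.3% and 15.5%, while *Myh11*, *Sorbs2* and *Ppp1r12b* stood at 3.01%, 1.46% and 0.447%. The adult pulse values of *Myh11* and *Acta2* were 35.1% and 27.7%, where 5 of 139 SMCP-like cells held 42.4% and 37.6% of their UMIs. Members that were at least 2-fold lower in SMCP-like than in pericyte-like cells in both libraries were *Casq2*, *Smtn* and *Pcp4l1*, and in the E10-P56 library also *Cacna1c* and *Pln*, the latter on 10 and 14 UMIs. Members that were at least 2-fold higher in SMCP-like cells in both libraries were *Acta2*, *Actg2*, *Tagln*, *Cnn1*, *Tpm1*, *Csrp1*, *Pdlim3*, *Actn1*, *Synpo2*, *Nexn* and *Ckb*. The 10 pericyte markers summed to 9411 CPM in E10-P56 and 9249 CPM in adult SMCP-like cells, below the 25558 and 23786 CPM of pericyte-like cells. Of those SMCP-like sums, *Rgs5* alone made up 6617 and 5751 CPM.

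**Figure D3:**
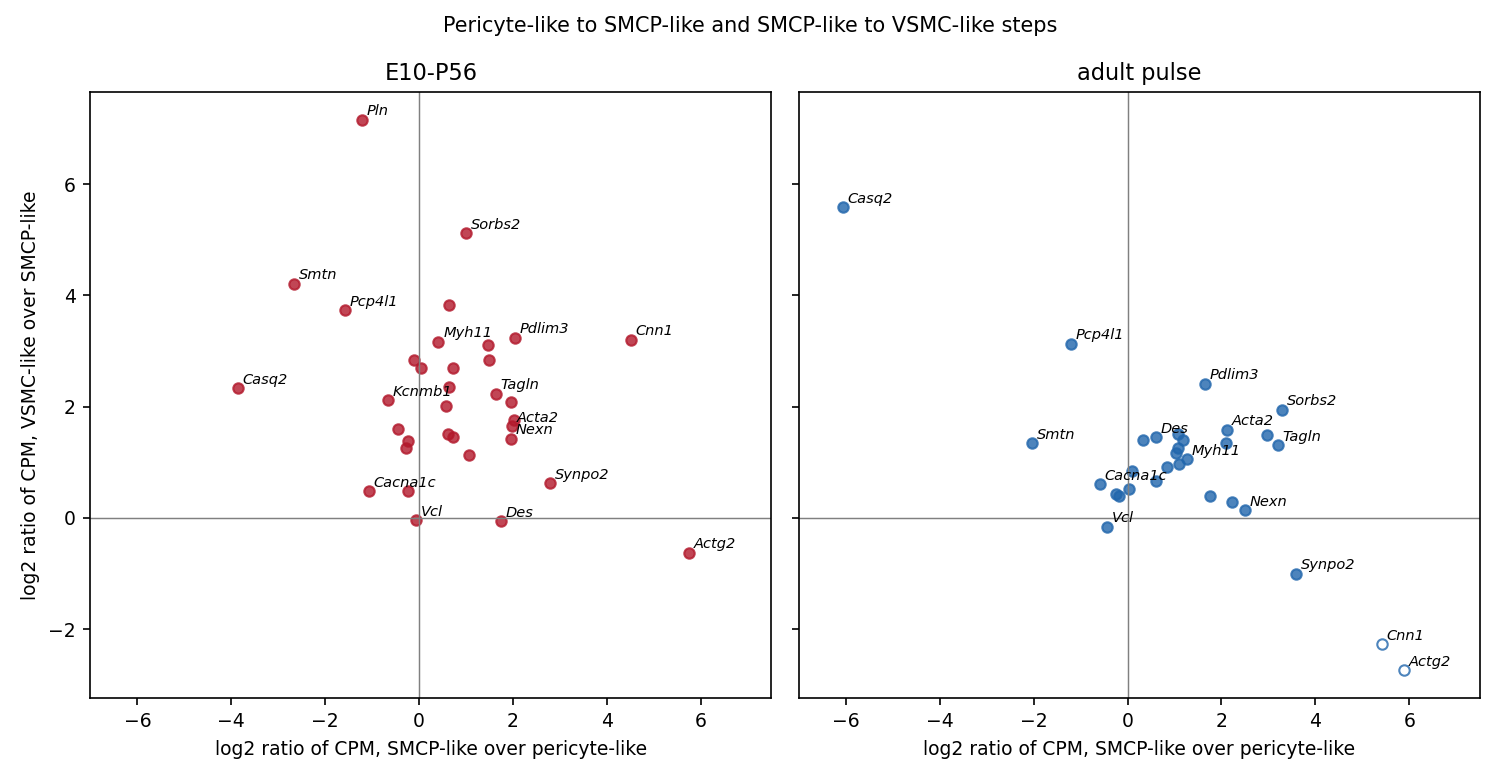
Log2 ratio of SMCP-like over pericyte-like cells (x axis) against log2 ratio of VSMC-like over SMCP-like cells (y axis) for the members with at least 20 UMIs at both steps, in each library. Open circles are ratios against 0 UMIs, set at a floor of 3. Most points lie above 0 on the y axis, with *Casq2*, *Smtn* and *Pcp4l1* to the left and *Actg2*, *Cnn1* and *Synpo2* to the right, below 0 on the y axis in the adult pulse library.

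The muscle forms differed more between VSMC-like and pericyte-like cells than their non-muscle counterparts did. For pairs of a muscle gene and its non-muscle counterpart, the ratio of VSMC-like to pericyte-like cells was 12.4 in the E10-P56 and 13 in the adult pulse library for *Acta2*, against 1.55 and 1.3 for *Actb*, the cytoplasmic actin. It was 11.9 and 5.02 for *Myh11* against 0.411 and 0.402 for the non-muscle myosin heavy chain *Myh9*. It was 2.2 and 1.91 for *Myl9* against 0.514 and 0.582 for *Myl12a*, and 14.6 and 22.8 for *Tagln* against 0.561 and 0.488 for *Tagln2*. It was 8.0 and 5.97 for *Tpm2* against 0.846 and 0.905 for *Tpm4*. The muscle gene had the larger ratio in each of these pairs. Of the 15 non-muscle genes, 2 were at least 2-fold higher and 1 lower in E10-P56 VSMC-like than in pericyte-like cells, against 9.08% and 15.3% of all genes. In SMCP-like against pericyte-like cells 7 were higher and 1 lower, against 8.51% and 12.6% of all genes. SMCP-like cells had 1019 CPM of *Tpm4*, against 252 in pericyte-like and 213 in VSMC-like cells, and *Vim*, vimentin, was at 1003, 4661 and 3671 CPM in pericyte-like, SMCP-like and VSMC-like cells. In the adult pulse library 2 of 15 were higher and 2 lower in SMCP-like than in pericyte-like cells, against 5.66% and 10.0% of all genes.

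Regulators and signalling genes outside the list showed which parts of the pathway the pericyte-like cells already held. Of 40 such genes, 19 of 36 with enough UMIs were at least 2-fold higher and 2 lower in E10-P56 pericyte-like than in fibroblast-like cells, 6 of 36 higher and 7 lower in SMCP-like than in pericyte-like, and 15 of 38 higher and 5 lower in VSMC-like than in pericyte-like cells. The shares of all genes at these steps were 20.2% and 14.3%, 8.51% and 12.6%, and 9.08% and 15.3%. The adult pulse library had 22 higher and 3 lower of 37, 3 and 6 of 33, and 9 and 3 of 31, against 16.2% and 12.6%, 5.66% and 10.0%, and 5.72% and 23.9% of all genes. *Notch3*, the mural cell receptor that maintains smooth muscle identity, was at 1102, 849 and 706 CPM in the E10-P56 mural populations against 8.29 in fibroblast-like cells. Its targets parted. *Heyl* was lower in VSMC-like than in pericyte-like cells, 0.357 (0.301 to 0.423) and 0.0902 (0.033 to 0.197) times, and *Hey2* higher, at 3.25 and 60.5 CPM in the E10-P56 and 8.21 and 42.2 CPM in the adult pulse library.

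The nitric oxide receptor subunits *Gucy1a3* and *Gucy1b3* and the cyclic GMP kinase *Prkg1*, which relax the cell, were 112 (102 to 125), 112 (98.2 to 127) and 32.8 (26.4 to 40.8) times as high in E10-P56 pericyte-like as in fibroblast-like cells, and *Gucy1b3* was lower in VSMC-like than in pericyte-like cells (0.393 (0.354 to 0.437)). Of the calcium entry and release genes, *Trpc6* was at 1.3 and 64.5 CPM in E10-P56 pericyte-like and SMCP-like cells, and *Ryr2*, the ryanodine receptor, at 0.65, 0 and 64.1 in pericyte-like, SMCP-like and VSMC-like cells. *Palld* and *Ldb3*, scaffold proteins of actin bundles, followed the list, with VSMC-like cells 27.9 (19.7 to 41.1) and 75 (20.5 to 624) times the pericyte-like level. *Klf4*, a repressor of the contractile genes in smooth muscle, was at 678 CPM in fibroblast-like, 73.5 in pericyte-like, 37.5 in SMCP-like and 238 in VSMC-like cells. The 18 striated muscle genes summed to 31.2, 25.8 and 75.6 CPM in E10-P56 pericyte-like, SMCP-like and VSMC-like cells and to 53.3, 106 and 36.1 CPM in the adult ones.

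Between the libraries, the mural populations held the list at levels that differed most in VSMC-like cells. There, 17 of 35 members were at least 2-fold higher and 1 lower in the E10-P56 than in the adult pulse library, against 15.7% and 6.69% of all genes, with a median log2 ratio of 0.94 for members and 0.09 for all genes. *Cnn1* (22.5 (7.66 to 109)), *Synm* (7.08 (3.83 to 14.8)), *Sorbs2* (6.99 (4.88 to 10.4)), *Kcnma1* (6.92 (1.21 to 277)) and *Smtn* (4.95 (3.07 to 8.53)) had the largest ratios, apart from *Actg2*, for which 130 UMIs against 0 gave only a bound of at least 3.75. The adult values of *Cnn1* and *Kcnma1* rest on 3 and 1 UMIs, and 47 adult *Cnn1* UMIs lay in the 12 cells of the SMCP-like cluster that their own markers named VSMC. The ratio was 2.87 (2.57 to 3.22) for *Myh11* and 1.49 (1.42 to 1.56) for *Acta2*, while *Casq2* was lower (0.462 (0.36 to 0.599)). The adult VSMC-like cells also held more of the pericyte marker *Rgs5*, 5067 against 2347 CPM, and 84.0% of them against 43.4% held a UMI of *Myh11* together with one of *Rgs5*. The part of such cells in the difference was not tested.

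In SMCP-like cells 3 of 33 members were higher and 1 lower (7.36% and 7.05% of all genes), and in pericyte-like cells 4 of 30 higher and 0 lower (3.89% and 3.56% of all genes). The 3 higher in SMCP-like cells were *Casq2* (4.41 (2.07 to 11.2)), *Des* (2.69 (2.32 to 3.12)) and *Kcnmb1* (2.39 (0.944 to 7.74)), and *Ckb* was lower (0.468 (0.398 to 0.551)). *Cnn1* had a ratio of 0.506 (0.37 to 0.698). The 4 higher in pericyte-like cells were *Synm* (7.13 (2.51 to 27.9)), *Sorbs2* (3.8 (1.62 to 10.3)), *Tagln* (2.4 (2.16 to 2.66)) and *Ppp1r12b* (2.0 (1.48 to 2.73)), with *Kcnmb1* next at 1.95 (1.1 to 3.57). The ratios of *Synm* and *Sorbs2* rest on 30 against 4 and 28 against 7 UMIs. In the E10-P56 library 5 pericyte-like cells held 60% and 53.6% of those UMIs.

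**Figure D4:**
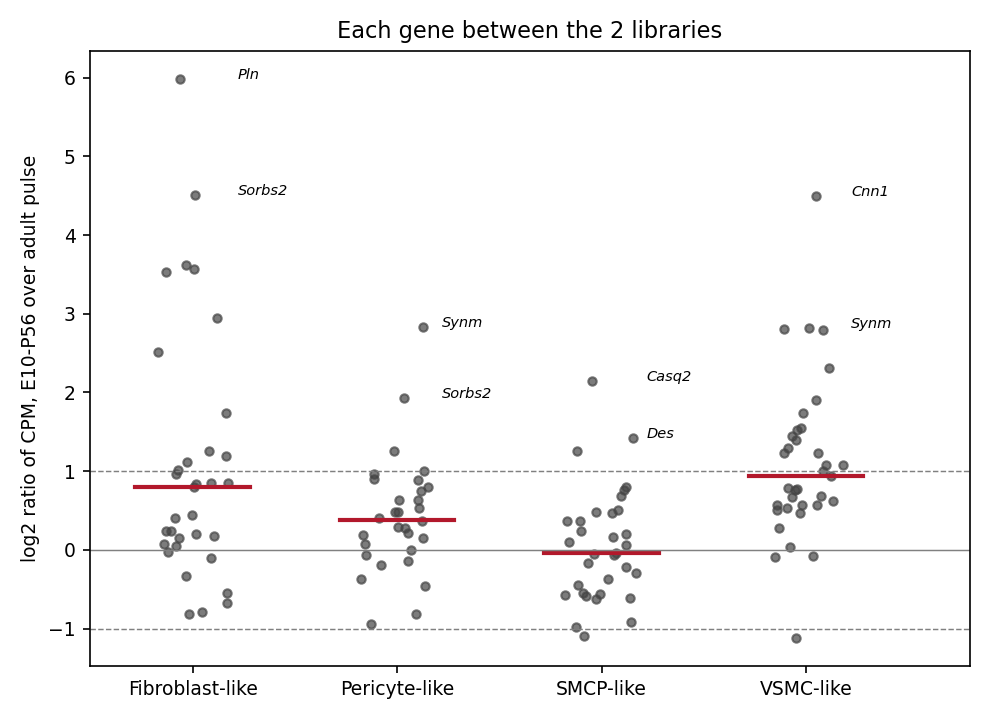
Log2 ratio of CPM, E10-P56 over adult pulse (y axis), for each member with at least 20 UMIs in the 4 populations (x axis); points are members, spread sideways only for sight. Red lines mark medians and dashed lines a 2-fold difference, and the VSMC-like median of 0.94 and fibroblast-like median of 0.80 lie above those of pericyte-like (0.38) and SMCP-like (-0.04) cells.

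In fibroblast-like cells 12 of 33 members were higher in the E10-P56 library and 0 lower, against 6.56% and 7.4% of all genes. The largest ratios were for *Pln* (63.4 (17.1 to 531)), *Sorbs2* (22.8 (12.8 to 44.9)), *Cnn1* (12.3 (5.67 to 31.8)), *Acta2* (11.9 (10.6 to 13.4)) and *Myh11* (11.6 (9.57 to 14.2)). Set against the VSMC-like cells of the same library, the fibroblast-like level ranged from 0.219% (*Myocd*) to 16.8% (*Ckb*) in the E10-P56 library and from 0.0127% (*Pln*) to 43.5% (*Ckb*) in the adult pulse library. It was under 1% for 17 and 15 members, counted with no share over all genes. Among these, E10-P56 fibroblast-like cells had 0.406% of the VSMC-like level of *Acta2*, 0.401% of *Myh11*, 0.38% of *Tagln*, 0.356% of *Cnn1*, 0.388% of *Lmod1*, 0.364% of *Sorbs2* and 0.379% of *Pln*. The other members under 1% in that library ranged from 0.219% (*Myocd*) to 0.877% (*Mrvi1*), with *Mylk* at 0.679% and *Tpm2* at 0.72%. In the adult pulse library the values were 0.0509%, 0.0994%, 0.0757% and 0.65% for *Acta2*, *Myh11*, *Tagln* and *Cnn1*. Schwann-like cells of the E10-P56 library had 138 CPM of *Acta2* and 257 of *Tagln*, above the fibroblast-like 63.8 and 45.7, and 25 of the 35 members were no higher in fibroblast-like than in Schwann-like cells. There, 5 members were at least 2-fold higher in fibroblast-like cells. The 25 include *Ckb*, *Smtn* and *Csrp1*, which Schwann-like cells held at 66.0%, 41.5% and 37.0% of the VSMC-like level. For such members Schwann-like cells give no background. The adult pulse library had 13 members no higher in fibroblast-like than in Schwann-like cells, against 21 Schwann-like cells that held 163305 UMIs in all. Members such as *Acta2*, *Myh11*, *Cnn1* and *Pln* had 0 UMIs in those adult Schwann-like cells, with an upper limit of 22.6 CPM. Their adult fibroblast-like levels lay under that limit, so the adult Schwann-like cells cannot place them. These comparisons with Schwann-like cells were counted for the members only. With no mitochondrial limit the E10-P56 library held 664 VSMC-like cells and the adult pulse library 38, and the part of free RNA from such cells was not tested.

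Most VSMC-like cells of the E10-P56 library carried a high mitochondrial share. Named with no mitochondrial limit, 451 of 664 (67.9%) lay over 10%, and 14 of 38 (36.8%) in the adult pulse library. In the E10-P56 library the list took 7.03% (6.95 to 7.1) of the nuclear-encoded UMIs in the 51 cells with a mitochondrial share up to 5%, 9.34% (9.28 to 9.39) in the 162 cells up to 10%, 10.2% (10.2 to 10.3) in the 262 cells up to 20% and 9.19% (9.11 to 9.28) in the 189 cells above, whose median depths were 8644, 7145, 6178 and 3057 UMIs. As a share of all UMIs, mitochondrial ones included, the list took 6.79%, 8.63%, 8.83% and 6.61% in these 4 bins.

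Its composition differed. Against cells up to 5%, 15 of 35 members were at least 2-fold higher in cells over 20% and 0 lower, against 11.6% and 14.5% of all genes. The median ratio was 1.61 for members and 0.967 for all genes. *Kcnma1* (9.44), *Smtn* (3.99), *Flna* (3.03), *Myh11* (2.86) and *Synpo2* (2.83) had the largest ratios, whereas *Acta2* (0.973), *Tagln* (0.76) and *Actg2* (0.676) were level or lower. *Myh11* stood at 3725 (3562 to 3893) and 10648 (10358 to 10944) CPM over nuclear UMIs. *Kcnma1* stood at 13.2 and 125 CPM, the former the lowest level of any member in cells up to 5%. Its ratio is given without an interval. The ratio went with transcript length. Of the 17 members whose longest annotated transcript exceeded the list's median of 3386 bases, 12 were at least 2-fold higher (median 2.44), and of the 18 shorter members 3 (median 1.16). The same difference was seen over all genes, with medians of 1.23 for the 3584 longer and 0.72 for the 3072 shorter genes. Spearman's rho of length and ratio was 0.75 across the 35 members and 0.48 across 6656 genes, points that share the same cells and are not independent replicates. The part of RNA quality in these differences was not tested.

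**Figure D5:**
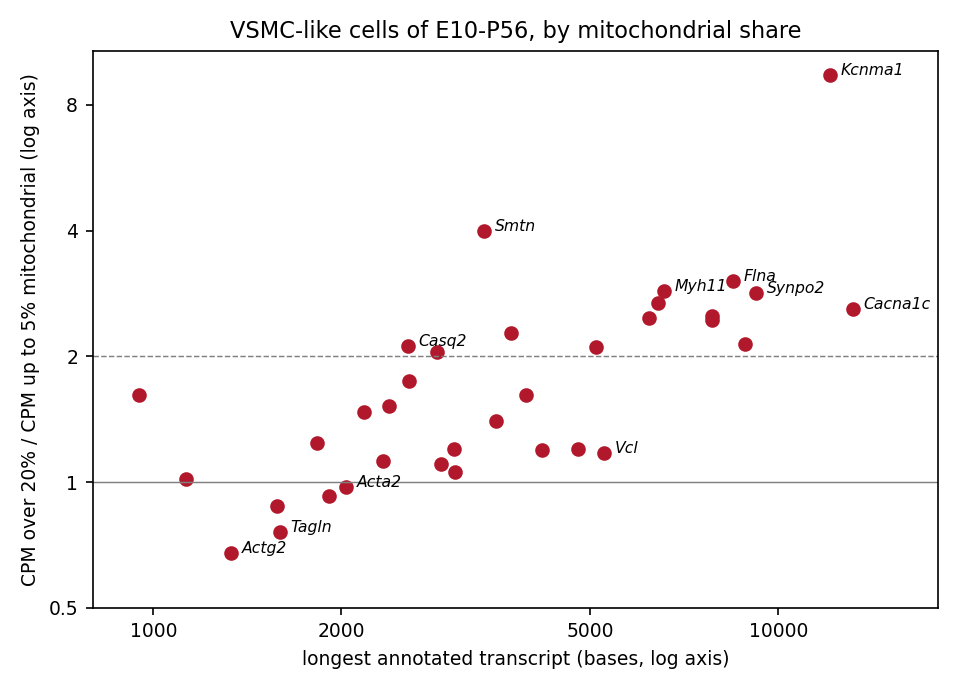
Ratio of nuclear CPM in E10-P56 VSMC-like cells with a mitochondrial share over 20% to that in cells up to 5% (y axis, log scale) against the longest annotated transcript in bases (x axis, log scale), 1 point per member. Ratios climb from below 1 for *Actg2* and *Tagln* to 9.44 for *Kcnma1*.

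Within the list, members differed in how closely they followed the sum of the others. Over 16 points, the 8 non-cycling populations of both libraries, Pearson's r of log2(CPM + 10) with the summed level of the other members was 0.97 for *Lmod1* and 0.95 for *Tagln*, against 0.64 for *Casq2*, 0.65 for *Actg2*, 0.53 for *Smtn*, 0.46 for *Synm*, 0.28 for *Ckb* and 0.19 for *Kcnma1*. These values describe populations that share libraries and depths. Among genes outside the list, those nearest to its summed level were *Jph2* (0.98), *Lbh* (0.97), *Dgkg* (0.95), *Lgalsl* (0.95), *Map7d2* (0.95), *Speg* (0.95), *Myom1* (0.95), *Nrip2* (0.94), *Rbpms2* (0.94) and *Pbxip1* (0.94). *Jph2*, *Nrip2* and *Rbpms2* were among the markers that named the VSMC-like cells, so their place was fixed by the naming. Of the others, *Lbh*, a transcription cofactor, was at 138, 253 and 649 CPM in E10-P56 pericyte-like, SMCP-like and VSMC-like cells, and *Speg*, a kinase of striated and smooth muscle, at 32.5, 32.4 and 133 CPM.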

How the data were processed

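Single-cell suspensions of tdTomato+ cells from adult muscle were profiled with 10x Chromium 3' chemistry. What the authors deposited are unnormalised UMI counts for each gene in each barcode, made with Cell Ranger 5.0.0 (E10-P56) and 3.0.2 (adult pulse), versions per the file headers, against a modified mm10 genome named in the methods of the study.

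Cells under 1500 UMIs, the study's minimum, or over 10% mitochondrial UMIs were left out. Counts were scaled to 10000 per cell and logged. The libraries were clustered together on 2000 variable genes without the members (30 components, 20 neighbours, Leiden resolution 0.5; leidenalg 0.10.2, scikit-learn 1.9.0). A cluster was named from at least 3 markers at least 2-fold higher than in the other cells and found in at least 10% of its cells. A rule that at least 1 such marker be among its 10 leading genes was added after the data were seen. Fibroblast-like clusters were sought second, against the cells already named. The SMCP markers were chosen by the study on these samples. Doublets were kept in the main values: Scrublet (scanpy 1.11.5) set a threshold that marked 4 and 3 cells, so the top 5% of scores was left out as an alternative.

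UMIs were summed per population and library. Intervals are exact Poisson, conditional binomial for ratios and Clopper-Pearson for shares of cells. A ratio against 0 UMIs was set at a floor of 3 counts and given as a bound. Calls needed 20 UMIs over the populations and a 2-fold ratio, with no test, since each group is 1 library. For shares of cells, each cell was drawn down to 1500 UMIs. Named in full were *Acta2*, *Myh11*, *Tagln*, *Cnn1*, *Myocd*, *Des*, *Pln*, *Kcnmb1*, *Casq2* and *Actg2*, and otherwise the 5 members with the largest ratio at each step and between libraries. Members, lists and rule were chosen with earlier results of these data known. Gene positions are from GENCODE M21 (GRCm38), which held 27645 of the 28001 gene IDs, and promoters from RefSeq on GRCm38.p6. Ratios, calls and thinning were tested on simulated counts. The alternatives tried are a minimum of 3000 UMIs, other mitochondrial limits, doublets left out, members used in clustering, a resolution of 1.0, each library alone, naming by each cell's own markers, another denominator, per-cell means, 3-fold, and no UMI minimum. Some genes of the lists outside the members are not reported here.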

Additional observations from a re-analysis of the deposited data

Results flagged for a closer look

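*Cnn1* stood out because its direction at the step from SMCP-like to VSMC-like cells was opposite in the libraries. VSMC-like cells had 9.2 (7.54 to 11.3) times the SMCP-like level in the E10-P56 library and 0.207 (0.0416 to 0.633) times in the adult pulse library. The difference between the libraries was not tested, since each is 1 sample. The adult ratio rests on 3 UMIs in 2 of 25 VSMC-like cells and on 65 UMIs in 12 of 139 SMCP-like cells. Of the 139, the 12 cells that their own marker UMIs named VSMC held 47 of the 65 UMIs.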

How the results depend on the processing

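With 1 library per group no replicate could be left out, and all limits below concern how cells were named and counted. The share of UMIs on the list was larger at each step from fibroblast-like to VSMC-like cells in both libraries under every alternative that gave it, except that clustering each library alone gave no adult VSMC-like population and so no value there. Of the 4 shares in each library, those that moved beyond their counting interval follow, in percent of UMIs. With a minimum of 3000 UMIs they were 1.64 (pericyte), 2.36 (SMCP) and 8.06 (VSMC) in the E10-P56 library and 1.09 (pericyte), 2.15 (SMCP) and 4.88 (VSMC) in the adult pulse library. With a mitochondrial limit of 20% they were 0.28 (fibroblast), 2.39 (SMCP) and 8.41 (VSMC) in the E10-P56 library and 1.14 (pericyte), 2.04 (SMCP) and 4.94 (VSMC) in the adult pulse library. With no mitochondrial limit they were 0.279 (fibroblast) and 8.17 (VSMC) in the E10-P56 library and 2.04 (SMCP) and 4.99 (VSMC) in the adult pulse library. With the top 5% of doublet scores left out they were 1.67 (pericyte), 2.55 (SMCP) and 9.41 (VSMC) in the E10-P56 library and 1.32 (pericyte), 2.19 (SMCP) and 5.51 (VSMC) in the adult pulse library. With members used in clustering they were 2.38 (SMCP) and 7.83 (VSMC) in the E10-P56 library and 1.13 (pericyte) and 4.59 (VSMC) in the adult pulse library. With a clustering resolution of 1.0 they were 8.15 (VSMC) in the E10-P56 library. With each library clustered alone they were 0.279 (fibroblast) in the E10-P56 library and 1.55 (pericyte) in the adult pulse library. With cells named by their own marker UMIs they were 0.264 (fibroblast), 1.43 (pericyte), 2.07 (SMCP) and 6.2 (VSMC) in the E10-P56 library and 0.247 (fibroblast), 1.11 (pericyte), 1.26 (SMCP) and 2.35 (VSMC) in the adult pulse library. With nuclear UMIs off the list as the denominator they were 0.284 (fibroblast), 1.67 (pericyte), 2.57 (SMCP) and 9.66 (VSMC) in the E10-P56 library and 0.256 (fibroblast), 1.21 (pericyte), 2.27 (SMCP) and 5.34 (VSMC) in the adult pulse library. With the mean of per-cell values they were 0.291 (fibroblast), 2.51 (SMCP) and 8.02 (VSMC) in the E10-P56 library and 0.24 (fibroblast), 1.24 (pericyte), 1.85 (SMCP) and 4.91 (VSMC) in the adult pulse library.

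Of 141 recomputed counts of members, 132 stayed within 1.5 times. These recounts were made for the members only, with no share over all genes. The adult count of members higher in SMCP-like than in pericyte-like cells, 18 as reported, was 10 with each library clustered alone and 6 with cells named by their own marker UMIs, and that in VSMC-like over SMCP-like cells, 17 as reported, was 11 with that naming and 6 at 3-fold. The counts of members apart between the libraries went from 4 to 2 at 3-fold in pericyte-like cells, from 4 to 7 with own-marker naming and to 1 at 3-fold in SMCP-like cells, and from 18 to 28 with own-marker naming and to 7 at 3-fold in VSMC-like cells. Own-marker naming turned 3 adult ratios: *Actg2* of SMCP-like over pericyte-like cells to 0.292, and *Cnn1* and *Actg2* of VSMC-like over SMCP-like cells to 22.8 each, each with 1 UMI in SMCP-like cells. This naming kept 35 adult SMCP-like and 73 adult VSMC-like cells, 29 of the latter close to the border with another name. Of the other recomputed ratios, 522 stayed within their counting interval and 139 left it. A turn of direction was counted only where the reported ratio was at least 2-fold either way, so smaller ratios may also have crossed 1. Of 48 recomputed shares of cells, 33 moved beyond their interval without thinning or at 3000 UMIs.

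The cause of these shifts was not tested beyond what each alternative builds in. Values of *Actg2*, *Cnn1*, *Kcnma1*, *Myocd* and *Pln* in pericyte-like cells rest on few or no UMIs. The same holds for *Kcnma1*, *Myocd* and *Pln* in SMCP-like cells. Adult pericyte-like values of *Synm* and *Sorbs2* rest on 4 and 7 UMIs, and adult SMCP-like values of *Casq2* and *Kcnmb1* on 7 and 5. Values of all members in adult VSMC-like cells rest on 25 cells. No paired analysis was possible because each group is 1 library.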

Other observations

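Among the cells of the SMCP-like cluster, the list differed with the name that a cell's own marker UMIs gave it. In the E10-P56 library it took 5.26% of UMIs in the 20 cells named VSMC, 2.16% in the 162 named SMCP and 2.44% in the 41 named pericyte. The adult pulse shares were 4.96% in 12, 1.55% in 31 and 1.78% in 57 cells. The cells named VSMC held *Cnn1* and *Actg2* (74 and 84 UMIs in the E10-P56, 47 and 50 in the adult pulse library) but 2 and 0 UMIs of *Pln*. The 206 cells of the E10-P56 VSMC-like cluster that kept that name held 1071 UMIs of *Pln* beside 776 of *Cnn1* and 130 of *Actg2*. These groups of cells were looked at after the data were seen and carry no test.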
